A study of Saccharomyces cerevisiae with 15 samples.

Results

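Transcript levels of 40 named genes of iron and copper uptake, storage and use were followed in the recombinant xylose-utilising *Saccharomyces cerevisiae* strain VTT-C-99318 under glucose repression, after glucose derepression and during growth on xylose. The genes were chosen by symbol: the reductases FRE1 to FRE6, the oxidase and permease pairs FET3 and FTR1 and FET5 and FTH1, the cell wall proteins FIT1 to FIT3, the siderophore carriers ARN1, ARN2, SIT1 and ENB1, the metal carriers FET4, SMF1 to SMF3, CCC1, COT1 and CTR1 to CTR3, the copper chaperone ATX1 and pump CCC2, the metallothioneins CUP1 and CRS5, the regulators AFT1, AFT2 and TIS11, the haem oxygenase HMX1, and MRS3, MRS4, ISU1, ISU2 and NFS1 of the mitochondrial branch. The array carries 39 probe sets for them, since the copies CUP1-1 and CUP1-2 share 1 probe set. Signals of 37 of these passed the filter on low values and were tested, among 5877 tested probe sets of 9275 on the array. FRE5 and ARN2 stayed under the floor of 16 signal units on every array, so nothing can be said about their levels.

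The strain was derived from CEN.PK2-1D and carries the xylose reductase and xylitol dehydrogenase genes XYL1 and XYL2 of *Pichia stipitis*, expressed from a PGK1 and a modified ADH1 promoter at the URA3 locus, and an additional copy of its own xylulokinase gene XKS1 at HIS3. These alleles were present in all 3 states, in aerobic batch cultures on synthetic complete medium that started from 50 g/l sugar. Glucose cultures were sampled at 5 h, with glucose left (Glc5h, glucose repressed cells), and again at 24 h, when glucose was used up and ethanol was present (Glc24h, glucose derepressed cells), and separate xylose cultures were sampled at 72 h with xylose left (Xyl72h). Each state had 3 fermentations, numbered 0, 1 and 2, and the sample of fermentation 2 was hybridised 3 times and averaged, so that n = 3 cultures throughout. No group of another strain, medium or iron supply was part of the comparison, and state, sampling time and, for xylose, carbon source change together and cannot be told apart.

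In yeast, iron reaches the cell by 3 kinds of route. Surface reductases convert ferric to ferrous iron, which the multicopper oxidase Fet3 and the permease Ftr1 then carry in with high affinity. Siderophore carriers of the Arn family take up iron bound to fungal or bacterial chelators, helped by mannoproteins of the cell wall, and low-affinity carriers such as Fet4 accept ferrous iron and other metals. The transcription factors Aft1 and Aft2 activate the genes of reductive and siderophore uptake and their partners when iron is scarce, with iron-sulfur clusters made in the mitochondria as part of the signal. Copper is tied to iron because Fet3 needs it, delivered by Ctr1, Atx1 and Ccc2, and the metallothioneins Cup1 and Crs5 bind it when it is in excess.

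The values below are signals scaled to the same 75th percentile on each array. Values under 16 were set to 16, the floor, and this applied to 52.3% of all values. Differences are of mean log2 signals, with the standard error (SE) and the adjusted p of limma, and a difference is called rising, falling, higher or lower only when that p was under 0.05. The arrays measure a transcript as a part of the RNA of the whole culture, so fewer cells expressing a gene and less of its transcript per cell cannot be told apart. Of the states' own markers, ADH2, the glucose-repressed alcohol dehydrogenase, had a mean signal of 20.1 under repression, 417 after derepression and 71.9 on xylose, and the hexose transporter gene HXT3 had 592, 40.8 and 185.7. The array of Glc24h culture 1 had a 3' to 5' signal ratio of 10.28 for actin, where the other arrays had 1.858 to 3.007. For the TATA-binding protein control its ratio was 3.243, within the 2.714 to 4.129 of the other arrays. For the genes chosen by symbol above, calls that change without this culture are stated. Medians, orders of state means and the genes of wider pathway lists were not examined without it.

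Of the 37 tested genes, 8 differed between xylose-grown and glucose repressed cells, 4 of them higher on xylose (SMF1, CRS5, ISU1 and ISU2) and 4 lower (FET3, SIT1, ENB1 and FET4). That is 21.6% of the genes, where 25.7% of all tested probe sets were called in this comparison, 11.7% higher and 14% lower. Between Xyl72h and Glc24h 4 genes were called, ISU2 higher on xylose and SIT1, SMF2 and MRS4 lower, which is 10.8% against 5.63% of all tested probe sets (3.37% higher and 2.26% lower). Between Glc24h and Glc5h 10 were called, 8 of them higher in Glc24h (ARN1, SMF1, FRE6, FET5, COT1, CTR3, CRS5 and ISU1) and 2 lower (FET4 and ISU2), or 27% against 33.5% of all tested probe sets (14.4% higher and 19.1% lower). The genes were therefore called about as often as probe sets in general in the comparisons with Glc5h. The 3 comparisons share their samples pairwise, so their calls are not independent of each other.

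In all, 15 of the genes were called in at least 1 comparison and 22 in none. ISU2 alone was higher on xylose than in both glucose states, and SIT1 alone was lower than in both. The F-test over the 3 states called 13 genes (35.1%, against 34.3% of all tested probe sets). The states also had an order: 26 of 37 genes had their highest mean signal in Glc24h, where 32.6% of all tested probe sets did. FRE3 is counted among the 26 but passed the filter only through Glc24h culture 1, so its highest state was fixed in advance. The same holds for FRE4 and Glc5h. The lowest mean lay on xylose for 17 genes, against 22.5%, and in Glc5h for 15, against 34.1%. Median log2 differences of the genes were 0.62 for Glc24h minus Glc5h, -0.77 for Xyl72h minus Glc24h and 0.002 for Xyl72h minus Glc5h. Over all tested probe sets they were -0.03, 0 and -0.02.

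**Figure D1:**
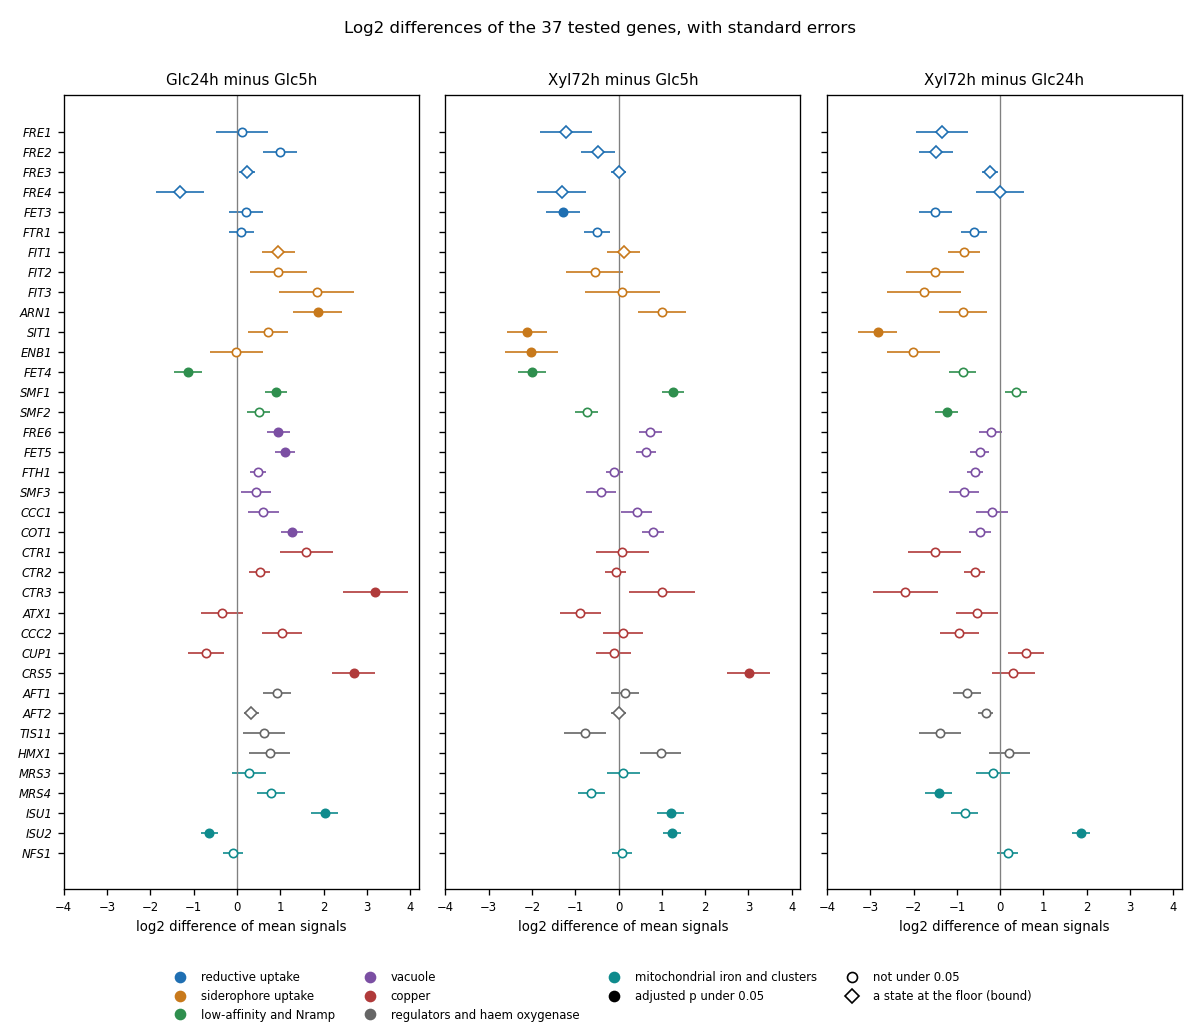
Log2 difference of mean signals (x axis) for the 37 tested genes (y axis, coloured by role) in Glc24h minus Glc5h, Xyl72h minus Glc5h and Xyl72h minus Glc24h, with 3 cultures a state. Bars are the standard error of limma, which pools the spread within the 3 states, so a gene has the same bar in each panel. Filled circles are differences with an adjusted p under 0.05 in limma, open ones are not, and diamonds mark a difference against a state in which all cultures lay at the floor. Points lie mostly to the right of 0 in Glc24h minus Glc5h (median 0.62) and to the left in Xyl72h minus Glc24h (median -0.77). In Xyl72h minus Glc5h the median is 0.002.

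Of the genes for reductive uptake, FET3, the multicopper ferroxidase (YMR058W), was the only one called. Its signals in cultures 0, 1 and 2 were 236, 589 and 399 in Glc5h, 591, 378 and 385 in Glc24h, and 225, 113 and 152 on xylose. All xylose-grown cultures were thus below all glucose cultures. The difference of Xyl72h minus Glc5h was -1.28 on the log2 scale (SE 0.39, adjusted p = 0.047), and Xyl72h minus Glc24h was -1.49 (adjusted p = 0.0746). The call against Glc5h was at the edge of the threshold: it had an adjusted p of 0.0769 with the fermentation number as a block, and it was past the threshold in 1 of 9 fits that each left out 1 culture, the one without Glc5h culture 0. Scaling by the reference genes ALG9, TAF10, TFC1 and UBC6 reduced the difference to -0.80 (adjusted p = 0.261), and it was also lost with the values as deposited (0.064) and cyclic loess (0.0558). The difference from Glc24h did not pass as reported here but did with quantile normalization (0.0309) and cyclic loess (0.0459).

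FTR1 (YER145C), the permease that works with Fet3, ranged over 160.3 to 360 in glucose repressed cells, over 219 to 282 after derepression and over 130.1 to 174.5 on xylose. No comparison passed for it (Xyl72h minus Glc24h -0.61, adjusted p = 0.324), although the xylose-grown cultures all lay below the Glc24h cultures.

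The surface reductases of this route were near the lower end of what the arrays measured. FRE1 (YLR214W), a ferric and cupric reductase, had 33.3, 91.9 and 16.6 in Glc5h and 55.7, 49.9 and 23.6 in Glc24h, and FRE2 (YKL220C), a ferric reductase, had 16, 42.1 and 16 in Glc5h and 50.3, 55.2 and 31.4 in Glc24h. Both were at the floor in every xylose-grown culture. In no comparison did either pass: for Xyl72h minus Glc24h the differences against the floor were -1.33 for FRE1 (adjusted p = 0.279) and -1.47 for FRE2 (adjusted p = 0.0804), and these are bounds. FRE4 (YNR060W), a reductase for siderophore iron, was measured only in Glc5h, at 32.1, 108.1 and 18.3, and was at the floor in all cultures of the other states (Glc24h minus Glc5h -1.32, adjusted p = 0.109, also a bound). FRE3 (YOR381W), of the same kind, was above the floor in a single culture, with 25.6 in Glc24h culture 1.

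**Figure D2:**
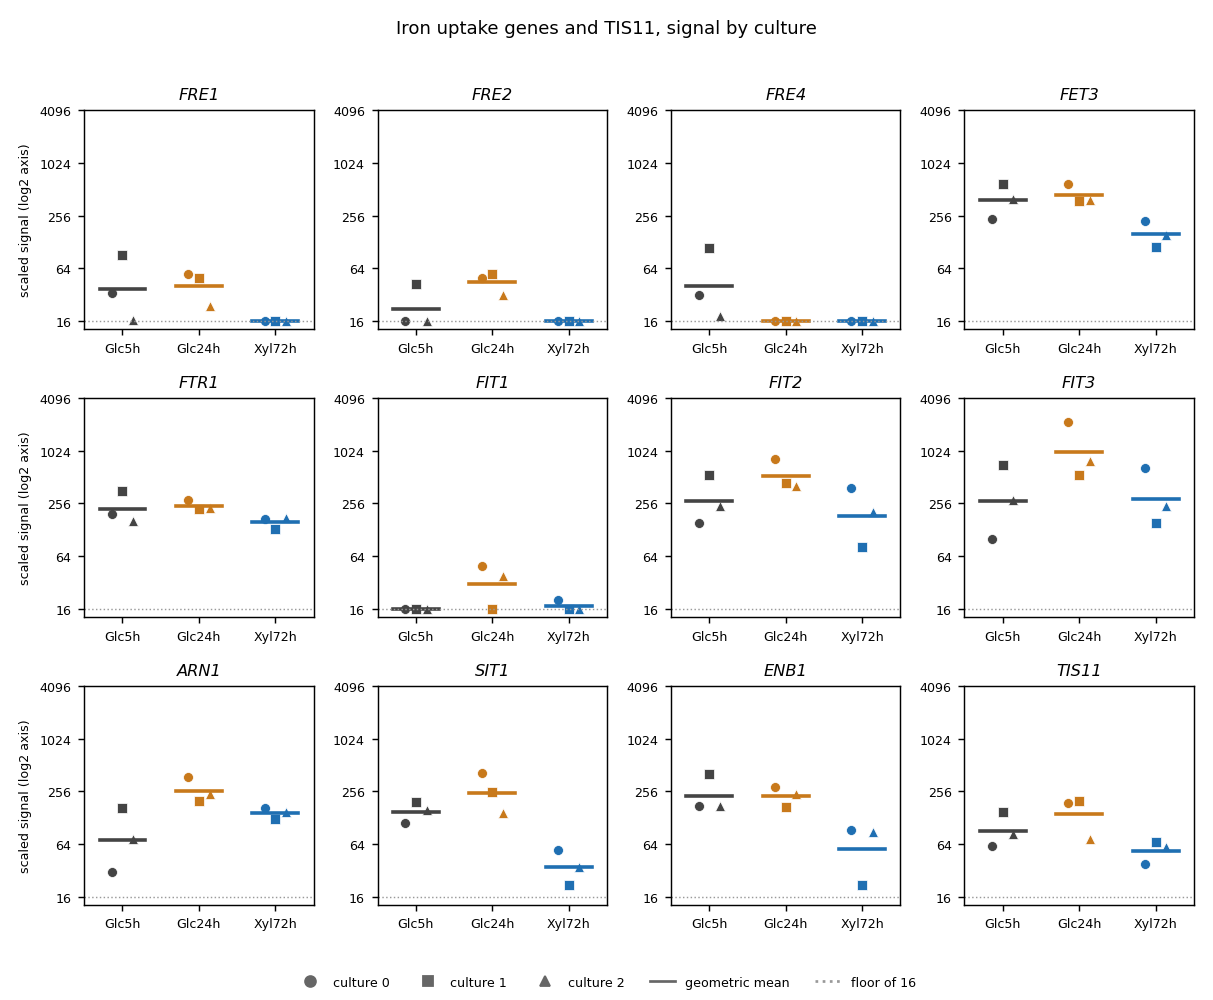
Scaled signal (log2 y axis) of 11 genes of reductive and siderophore iron uptake and of TIS11 in each culture of Glc5h, Glc24h and Xyl72h. Circles, squares and triangles are cultures 0, 1 and 2, the horizontal bar is the geometric mean and the dotted line the floor of 16. SIT1 lies at 22.2 to 54.8 on xylose and at 111.7 to 410 in the glucose cultures, while FIT2, FIT3 and ARN1 spread widely between cultures of the same state.

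Among the carriers of iron bound to siderophores, the transcripts of SIT1 (YEL065W), for ferrioxamine B, and of ENB1 (YOL158C), for enterobactin, were lower on xylose. SIT1 had 111.7, 194 and 157 in Glc5h, 410.3, 254 and 146 in Glc24h, and 54.8, 22.2 and 34.9 on xylose. No xylose-grown culture reached the lowest glucose culture. The level on xylose was 4.31-fold lower than in Glc5h (log2 -2.11, SE 0.46, adjusted p = 0.0141) and 7.11-fold lower than in Glc24h (log2 -2.83, SE 0.46, adjusted p = 0.0168). The difference from Glc5h was past the threshold in all 9 fits that left out 1 culture but had an adjusted p of 0.0532 with reference gene scaling, and the difference from Glc24h was lost without Glc24h culture 1, Xyl72h culture 1 or Xyl72h culture 2 (adjusted p of 0.0555 to 0.0616).

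ENB1 had 173.3, 401 and 172.9 in Glc5h, 288, 168 and 242 in Glc24h, and 93.5, 21.9 and 89.1 on xylose, again with no overlap between xylose and either glucose state. Its difference of Xyl72h minus Glc5h was -2.01 (SE 0.61, adjusted p = 0.0466), and Xyl72h minus Glc24h was -2.00 (adjusted p = 0.117). The call was lost in each of the 9 fits without 1 culture (adjusted p of 0.0586 to 0.134) and with the fermentation number as a block (0.0664) or reference gene scaling (0.128), and the difference without any culture kept its sign. Glc24h minus Glc5h for ENB1 was -0.01.

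A different order was seen for ARN1 (YHL040C), the carrier of ferrichrome. Its signals were 30.5, 166 and 73.5 in Glc5h, 377, 198 and 239 in Glc24h, and 164, 124.9 and 147.5 on xylose. The glucose derepressed cultures all lay above the glucose repressed ones, and the xylose-grown cultures lay within the range of Glc5h. ARN1 rose 3.64-fold between Glc5h and Glc24h (log2 1.86, SE 0.56, adjusted p = 0.0378). Of the 9 fits without 1 culture only that without Glc5h culture 1 kept this call, and with the fermentation number as a block the adjusted p was 0.0632. In the glucose samples alone, with the culture as a block, it was 0.189.

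Cell wall mannoproteins that retain siderophores are encoded by FIT1, FIT2 and FIT3, of which FIT2 and FIT3 are neighbours on chromosome XV, next to FRE5. FIT2 (YOR382W) had 154, 536 and 242 in Glc5h, 828, 438 and 401 in Glc24h and 382, 80.7 and 206 on xylose. FIT3 (YOR383C) had 101.9, 707 and 282 in Glc5h, 2198, 545 and 780.1 in Glc24h and 655, 154.8 and 239 on xylose. Within a state, cultures thus differed several-fold, and no comparison passed for either gene despite log2 differences of 1.84 (FIT3, Glc24h minus Glc5h, adjusted p = 0.142) and -1.76 (FIT3, Xyl72h minus Glc24h, adjusted p = 0.324). FIT1 (YDR534C) was above the floor in Glc24h cultures 0 and 2 (49.3 and 37.9) and in Xyl72h culture 0 (20.4). Without Glc24h culture 1, the array with the high actin ratio, its difference of Glc24h minus Glc5h had an adjusted p of 0.00216, against 0.088 with it, and that of Xyl72h minus Glc24h had 0.0144, against 0.277. All Glc5h cultures and 2 of the xylose-grown cultures were at the floor.

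The low-affinity carrier gene FET4 (YMR319C), whose product takes up ferrous iron, copper and zinc, was highest in glucose repressed cells. Signals were 71.0, 125.2 and 72.7 in Glc5h, 55.2, 31.3 and 35.6 in Glc24h, and 16, 24.7 and 25.5 on xylose, and the 3 states did not overlap. The level on xylose was 4.0-fold below Glc5h (log2 -2.00, SE 0.32, adjusted p = 0.00453), a difference that was past the threshold in all 21 alternatives run. FET4 fell by 1.13 on the log2 scale from Glc5h to Glc24h (SE 0.32, adjusted p = 0.029). That fall was lost without Glc5h culture 0 or 1 or Glc24h culture 1 or 2 (adjusted p of 0.0509 to 0.0908), with the fermentation number as a block (0.0504), with the values as deposited (0.0692) and with reference gene scaling (0.293). In the glucose samples alone, with the culture as a block, the fall of FET4 had an adjusted p of 0.138.

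The Nramp-type carrier genes SMF1 and SMF2 were called in different comparisons. SMF1 (YOL122C), the manganese carrier of the plasma membrane, had 19.0, 23.4 and 16 in Glc5h, 36.6, 44.8 and 28.3 in Glc24h, and 35.1, 58.3 and 48.0 on xylose. All glucose repressed cultures were below all others. SMF1 was 2.40-fold higher on xylose than in Glc5h (log2 1.26, SE 0.25, adjusted p = 0.0104) and rose by 0.90 between Glc5h and Glc24h (adjusted p = 0.0281), a rise that was lost without Glc5h culture 0 or 2 or Glc24h culture 0 or 1 (adjusted p of 0.0753 to 0.0834). SMF2 (YHR050W), a manganese carrier of intracellular vesicles, had 45.2, 89.3 and 48.2 in Glc5h, 90.7, 73.9 and 82.7 in Glc24h, and 33.6, 30.4 and 41.7 on xylose. The xylose-grown cultures were the lowest, and Xyl72h minus Glc24h was -1.23 (SE 0.27, adjusted p = 0.0418), with an adjusted p of 0.0663 when the fermentation number was a block and 0.0562 with reference gene scaling. It passed in 2 of the 9 fits without 1 culture, those without Glc5h culture 0 or 1.

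Of the genes of the vacuole, where yeast stores iron, FET5 and FRE6 rose after glucose derepression. FET5 (YFL041W), the oxidase of the vacuolar membrane, had 38.9, 66.9 and 45.7 in Glc5h, 90.6, 110.6 and 122.2 in Glc24h, and 81.4, 63.9 and 87.4 on xylose. Every Glc24h culture was above every Glc5h and every xylose-grown culture, and the rise of 1.12 from Glc5h (SE 0.23, adjusted p = 0.00868) was past the threshold in all 22 alternatives run. FRE6 (YLL051C), the vacuolar reductase, had 19.6, 25.4 and 16.7 in Glc5h, 39.3, 52.5 and 29.5 in Glc24h, and 41.8, 26.9 and 34.3 on xylose. It rose by 0.96 between Glc5h and Glc24h (adjusted p = 0.0277), which was lost without Glc5h culture 0 or 2 or Glc24h culture 0 or 1 (adjusted p of 0.0715 to 0.0846).

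COT1 (YOR316C), which carries cobalt and zinc into the vacuole, had 60.4, 80.3 and 112.4 in Glc5h, 221, 164 and 209 in Glc24h, and 171, 113.6 and 147 on xylose. It rose 2.41-fold between the glucose states, which did not overlap (log2 1.27, SE 0.26, adjusted p = 0.0085). In a fit of the glucose samples alone, with the culture as a block, COT1 had an adjusted p of 0.0631. Xyl72h minus Glc5h for COT1 was 0.80 (adjusted p = 0.0588). That difference passed with quantile normalization (0.0488), cyclic loess (0.0498) and reference gene scaling (0.0261), but not with the values as deposited (0.0655). The permease gene FTH1 (YBR207W), the partner of FET5, passed in no comparison: it ranged over 119.8 to 191 in the repressed, 192 to 214 in the derepressed and 122 to 159 in the xylose-grown cultures, and Glc24h minus Glc5h was 0.49 (adjusted p = 0.0831). This difference of FTH1 did pass with quantile normalization (0.0352), cyclic loess (0.0281) and reference gene scaling (0.00603), but not with the values as deposited (0.0519). SMF3 (YLR034C), which releases iron from the vacuole, was at 35.9 to 85.4, 61.3 to 99.0 and 42.5 to 49.6 in the 3 states, and CCC1 (YLR220W), which stores iron there, at 26.3 to 33.1, 35.2 to 69.8 and 29.7 to 67.2. Neither was called in any comparison.

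**Figure D3:**
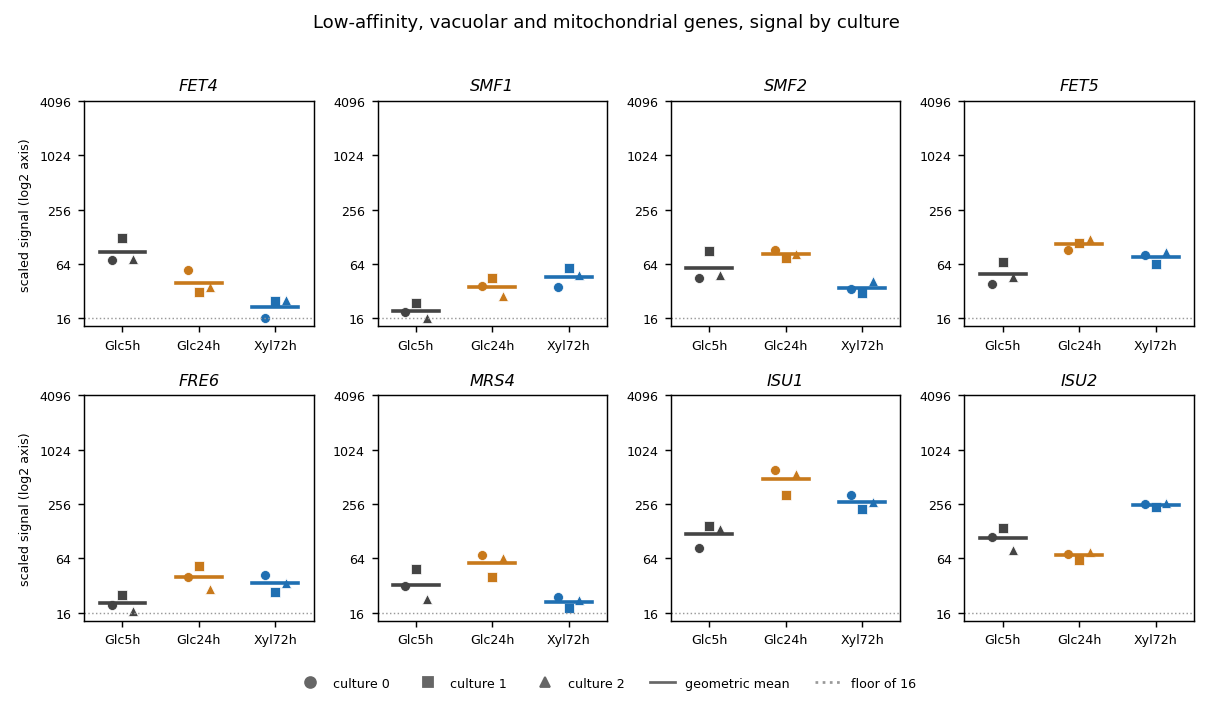
Scaled signal (log2 y axis) of the low-affinity and Nramp carrier genes FET4, SMF1 and SMF2, the vacuolar genes FET5 and FRE6 and the mitochondrial genes MRS4, ISU1 and ISU2 in each culture of Glc5h, Glc24h and Xyl72h. Symbols are cultures 0, 1 and 2, bars are geometric means and the dotted line is the floor of 16. FET4 is highest in Glc5h (71.0 to 125.2), ISU1 in Glc24h (322 to 618) and ISU2 on xylose (238 to 261).

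Copper carrier genes of the plasma membrane had their highest mean signals in glucose derepressed cells, and CTR3 was called. CTR3 (YLR411W), a high-affinity carrier, had 42.1, 31.2 and 16 in Glc5h, 533, 241 and 126 in Glc24h, and 152.7, 30.1 and 37.3 on xylose. The lowest Glc24h culture was above the highest Glc5h culture, and 1 xylose-grown culture, number 0, was within the range of Glc24h. CTR3 rose 9.17-fold between Glc5h and Glc24h, the largest difference of any of the 37 genes in this comparison (log2 3.20, SE 0.76, adjusted p = 0.0149, and 0.0507 without Glc24h culture 0). Its Glc5h culture 2 was at the floor, so this fold is a lower limit set in part by the floor. Xyl72h minus Glc24h for CTR3 was -2.19 (adjusted p = 0.164), which passed once the fermentation number was a block (adjusted p = 0.0275).

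CTR1 (YPR124W), the main high-affinity copper carrier, had the same order of state means, with signals of 37.6, 25.0 and 16 in Glc5h, 119.1, 81.0 and 43.9 in Glc24h, and 61.4, 16 and 18.5 on xylose. Its Glc24h minus Glc5h difference of 1.60 (SE 0.61) had an adjusted p of 0.0784, and of 0.00989 with the fermentation number as a block and 0.0264 in the glucose samples alone with the culture as a block. For Xyl72h minus Glc24h (-1.51, adjusted p = 0.228) the block gave 0.0392. In each of the states culture 0 was the highest for CTR1 and CTR3. CTR2 (YHR175W), the copper carrier of the vacuole, ranged over 88.0 to 159 under repression, 146 to 178 after derepression and 83.4 to 120.02 on xylose and was called in no comparison.

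The delivery of copper to Fet3 showed no call. ATX1 (YNL259C), the cytosolic copper chaperone, was at 32.8 to 67.0, 23.0 to 49.7 and 16 to 42.3 in Glc5h, Glc24h and Xyl72h. CCC2 (YDR270W), the copper pump of the Golgi, was at 40.03 to 157, 127 to 199 and 76.2 to 108.1, with 1.04 for Glc24h minus Glc5h (adjusted p = 0.122).

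Of the metallothionein genes, CRS5 was called and CUP1 was not. CRS5 (YOR031W) had 24.8, 31.6 and 83.0 in Glc5h, 160.1, 280 and 396 in Glc24h, and 319, 262 and 401 on xylose. Glucose repressed cultures were all below the others, and the ranges of Glc24h and Xyl72h overlapped. CRS5 was 8.02-fold higher on xylose than in Glc5h (log2 3.0, SE 0.50, adjusted p = 0.00524) and 6.49-fold higher in Glc24h than in Glc5h (log2 2.70, SE 0.50, adjusted p = 0.00566). Both differences were past the threshold in every alternative run, 21 and 22 settings. Xyl72h minus Glc24h was 0.31 (SE 0.50, adjusted p = 0.867). The CUP1 probe set, which is marked as shared and cannot separate CUP1-1 from CUP1-2, had 2653, 1665 and 1509 in Glc5h, 1087, 739 and 1870 in Glc24h, and 2404, 1166 and 1873 on xylose. Its ranges overlapped in each pair of states and it was not called, with -0.72 for Glc24h minus Glc5h (adjusted p = 0.221). Whether the changes of CUP1 and CRS5 differ from each other was not tested.

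**Figure D4:**
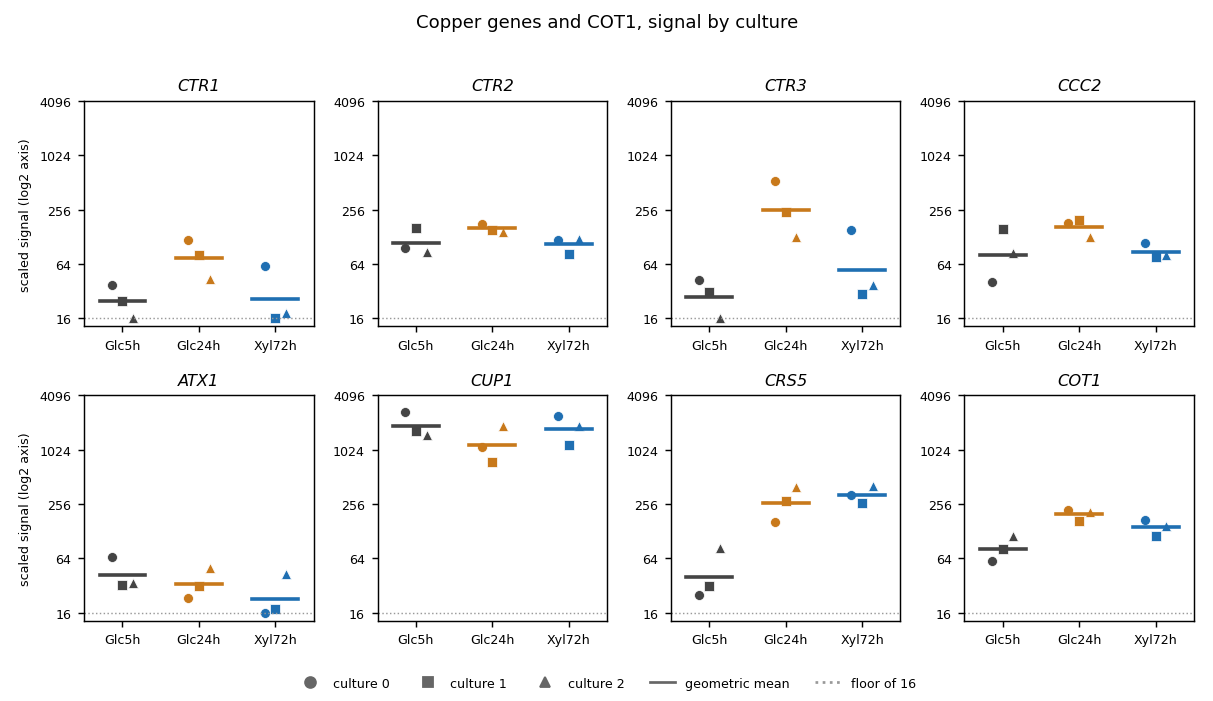
Scaled signal (log2 y axis) of the copper carrier genes CTR1 to CTR3, the pump CCC2, the chaperone ATX1, the metallothioneins CUP1 (1 probe set for both copies) and CRS5, and the vacuolar carrier COT1 in each culture of the 3 states. Symbols are cultures 0, 1 and 2, bars are geometric means and the dotted line is the floor of 16. CRS5 lies at 24.8 to 83.0 in Glc5h and at 160.1 to 401 in the other states, and CTR3 at 16 to 42.1 in Glc5h and 126 to 533 in Glc24h.

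The genes of the iron regulators themselves had weak signals. AFT1 (YGL071W) had 18.5, 20.3 and 38.6 in Glc5h, 54.9, 40.9 and 44.0 in Glc24h, and 36.9, 24.2 and 22.3 on xylose. Its Glc24h cultures were above all others, with an adjusted p of 0.0586 for Glc24h minus Glc5h (log2 0.92). AFT2 (YPL202C) was at the floor in all Glc5h cultures, at 16.3 to 26.8 in Glc24h and at most 16.1 on xylose. TIS11 (YLR136C), which encodes an RNA-binding protein that marks transcripts of iron-using proteins for decay when iron is scarce, had 60.2, 150.1 and 84.4 in Glc5h, 190.5, 196 and 73.3 in Glc24h, and 37.7, 68.4 and 59.1 on xylose. Xyl72h minus Glc24h was -1.39 for TIS11 (adjusted p = 0.168), with no overlap between the 2 states. HMX1 (YLR205C), the haem oxygenase that recovers iron from haem, had 97.5, 99.1 and 227 in Glc5h, 344, 168 and 184 in Glc24h, and 429, 189 and 205 on xylose, and was not called.

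In the mitochondrial branch, the scaffold genes ISU1 and ISU2, on whose products iron-sulfur clusters are assembled, were called in opposite directions after glucose derepression, the call of ISU2 in only 2 of 22 alternatives. ISU1 (YPL135W) had 83.0, 146.7 and 134.2 in Glc5h, 618, 322 and 554 in Glc24h, and 325, 227 and 270.5 on xylose. ISU2 (YOR226C) had 110.0, 139.9 and 80.1 in Glc5h, 71.4, 60.8 and 75.7 in Glc24h, and 258, 238 and 261 on xylose. For ISU1 every Glc5h culture was below every other culture, and for ISU2 the states did not overlap at all, with xylose highest and Glc24h lowest. ISU1 rose 4.07-fold from Glc5h to Glc24h (log2 2.03, SE 0.31, adjusted p = 0.00268, and 0.0618 in the glucose samples alone with the culture as a block), and was 2.30-fold higher on xylose than in Glc5h (log2 1.20, SE 0.31, adjusted p = 0.0273), which was lost without Glc5h culture 0, Xyl72h culture 0 or Xyl72h culture 2 (adjusted p of 0.0763 to 0.0951).

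On xylose ISU2 was 2.35-fold above Glc5h (log2 1.23, SE 0.20, adjusted p = 0.00502) and 3.65-fold above Glc24h (log2 1.87, SE 0.20, adjusted p = 0.00359), and both differences were past the threshold in all 21 alternatives run. The fall of ISU2 by 0.64 from Glc5h to Glc24h (SE 0.20, adjusted p = 0.0452) was less firm: it passed in 1 of 9 fits without 1 culture, that without Glc5h culture 2, and with the fermentation number as a block the adjusted p was 0.0717. In the glucose samples alone, with the culture as a block, this fall had an adjusted p of 0.199. It was lost under each of the 4 other scalings, with an adjusted p of 0.169 for the values as deposited, 0.07 with quantile normalization, 0.119 with cyclic loess and 0.905 with reference gene scaling, where the difference was -0.05. The relation between the changes of ISU1 and ISU2 was not tested as such.

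MRS4 (YKR052C), which carries iron into mitochondria, had 31.7, 48.5 and 22.9 in Glc5h, 70.3, 39.8 and 65.1 in Glc24h, and 23.7, 18.0 and 22.3 on xylose. It was 2.68-fold lower on xylose than in Glc24h, with no overlap (log2 -1.42, SE 0.32, adjusted p = 0.0462). The call was lost with the fermentation number as a block (adjusted p = 0.0705) and without Glc5h culture 0, Glc24h culture 0 or 2 or any 1 of the xylose-grown cultures (0.0721 to 0.158). It was also lost with quantile normalization (0.0515), cyclic loess (0.0794) and reference gene scaling (0.0673). Glc24h minus Glc5h for MRS4 was 0.79 (adjusted p = 0.0938), and its adjusted p was 0.0481 without Glc24h culture 1, 0.0314 with the values as deposited and 0.0268 with reference gene scaling. Its paralogue MRS3 (YJL133W) was close to the floor in all states, at most 42.2. NFS1 (YCL017C), the cysteine desulfurase that provides sulfur for the clusters, stayed between 104.7 and 202.5 in Glc5h, 117.5 and 152 in Glc24h and 140.8 and 167 on xylose, and its differences were 0.17 or less in size.

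As a group, the 23 tested genes that are listed as activated by Aft1 or Aft2 were counted separately from the other 14. Those others were FET4, SMF1, SMF2, CCC1, CTR1, CTR2, CTR3, CUP1, CRS5, AFT1, AFT2, MRS3, ISU2 and NFS1. FET4, called lower in Glc24h and on xylose than in Glc5h, therefore does not enter the counts of targets. Of these targets, 5 rose from Glc5h to Glc24h (ARN1, FRE6, FET5, COT1 and ISU1) and 0 fell in limma (9 higher and 1 lower at an unadjusted p under 0.05, where 19.3% and 24.7% of all tested probe sets were), with a median log2 difference of 0.76. The share called was 21.7%, against 33.5% of all tested probe sets, of which 14.4% were higher. On xylose 2 were lower than in Glc24h (SIT1 and MRS4) and none were higher, with a median of -0.84, and against Glc5h 3 were lower (FET3, SIT1 and ENB1) and 1 was higher (ISU1), with a median of -0.41. These are 8.7% and 17.4% of the targets, against 5.63% and 25.7% of all tested probe sets. At an unadjusted p under 0.05, Xyl72h minus Glc24h had 9 targets lower and 0 higher, where 8.05% and 11.2% of all tested probe sets were. The highest mean lay in Glc24h for 18 of the 23 targets, with FRE3 among them, and the lowest on xylose for 14. In the 14 other genes the medians were 0.51, -0.26 and 0.10 for the same 3 comparisons. Genes at the floor enter these medians at 16.

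The scaling of the arrays bears on these medians. With values as deposited, quantile normalization and cyclic loess the targets' median for Glc24h minus Glc5h was 0.99, 0.93 and 0.89, and for Xyl72h minus Glc24h it was -1.02, -1.11 and -1.07. With reference gene scaling the median of all tested probe sets itself moved to 0.25 for Glc24h minus Glc5h and 0.15 for Xyl72h minus Glc5h, and the targets had 1.31 and -0.95 in the first 2 comparisons, while their median for Xyl72h minus Glc5h was 0. Under this scaling the lowest mean lay on xylose for 10 of 23 targets, against 15.5% of all tested probe sets, and the highest in Glc24h for 21, against 47.2%.

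Cultures of the same state differed more in these genes than in the table as a whole. The SD between cultures, as a root mean square over the 37 genes on the log2 scale, was 0.678 in repressed, 0.529 in derepressed and 0.534 in xylose-grown cells, where all tested probe sets had 0.472, 0.461 and 0.347. Repeated hybridisations of fermentation 2 differed by 0.129, 0.173 and 0.251, less than samples of different fermentation number did. Hybridisation numbers follow the fermentation numbers, so a difference between cultures cannot be told apart from one between their sets of hybridisations. Targets of Aft1 and Aft2 mostly had the same culture at the top or the bottom of a state: culture 1 was the highest of the Glc5h cultures for 18 of the 21 targets measured there, where 26.6% of all tested probe sets had it highest, and culture 1 was the lowest on xylose for 15 of 19, where 30.3% had it lowest. A gene was taken as measured in a state when at least 1 of its cultures there was above the floor. These counts describe the cultures and were not tested, as genes of 1 culture are not independent. Leaving out Glc5h culture 1 added calls in Glc24h minus Glc5h for FRE2, SMF2, FTH1, CTR2, CCC2 and MRS4, in Xyl72h minus Glc5h for ARN1 and FET5, and in Xyl72h minus Glc24h for FRE2. Leaving out Glc5h culture 2 added calls for FRE4 and AFT1 in Glc24h minus Glc5h and for FRE1, FRE4, SMF3 and COT1 in Xyl72h minus Glc5h, and leaving out Xyl72h culture 0 added CTR1 in Glc24h minus Glc5h.

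Glc24h and xylose-grown samples that share a fermentation number come from separate cultures. Counted were genes with at least 1 culture above the floor in each of the states compared. Of 33 such genes, 24 had their highest signal under the same number in both, as did 60.7% of all tested probe sets counted in this way. FIT2, FIT3, SIT1, CTR1, CTR3 and HMX1 were examples, each with culture 0 highest in both states. For Glc5h and Glc24h, which are the same cultures at 5 h and 24 h, the number was the same for 12 of 33 genes, against 39.2% of all tested probe sets. What the shared number stands for in the xylose cultures was not tested.

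Genes further along the use of iron and copper were counted from fixed pathway lists. Of 14 tested genes of mitochondrial iron-sulfur cluster assembly, Xyl72h minus Glc5h called 1 higher and 3 lower, Glc24h minus Glc5h called 1 higher and 2 lower, and none was called between Xyl72h and Glc24h in limma (0 higher and 1 lower at an unadjusted p under 0.05). The shares called were 28.6% and 21.4% in the comparisons with Glc5h, where 25.7% and 33.5% of all tested probe sets were. ISA1, an assembly factor for clusters of aconitase type, rose from 79.5 ± 15.5 in Glc5h to 156.9 ± 10.7 in Glc24h and 147.2 ± 21.6 on xylose (SD, n = 3), with log2 differences of 1.00 (adjusted p = 0.00459) and 0.90 (0.00948). NFU1, a later-acting cluster carrier, went the other way, from 71.7 ± 29.3 to 22.4 ± 7.6 and 23.5 ± 6.4 (log2 -1.66 and -1.57, adjusted p = 0.0107 and 0.0175). Among 8 genes of the cytosolic assembly machinery 2 (25%) were lower on xylose than in Glc5h, NBP35 (-0.85, adjusted p = 0.0271) and TAH18. Of all tested probe sets 25.7% were called there, 14% as lower. TAH18 and DRE2 (25%) were lower in Glc24h than in Glc5h, where 33.5% of all tested probe sets were called. TAH18 was at the floor in every Glc24h and xylose-grown culture and at 27.8 ± 1.9 in Glc5h, so its differences are bounds. DRE2 alone was higher on xylose than in Glc24h (log2 1.33, adjusted p = 0.026), or 12.5% of the list against 5.63%.

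In the list of 14 iron-sulfur and haem enzymes, 4 were higher and 1 was lower on xylose in each of the comparisons with Glc5h and with Glc24h, and Glc24h minus Glc5h called 4 higher and 3 lower. The share called was 35.7% in Xyl72h minus Glc5h, where 25.7% of all tested probe sets were called, also 35.7% in Xyl72h minus Glc24h, where 5.63% were, and 50% in Glc24h minus Glc5h, where 33.5% were. SDH2, the iron-sulfur subunit of succinate dehydrogenase, had means of 145 ± 47.9, 833 ± 225 and 940.0 ± 171 in the order Glc5h, Glc24h, Xyl72h (Xyl72h minus Glc5h 2.73, adjusted p = 0.000988). ILV3, the dihydroxyacid dehydratase of branched-chain amino acid synthesis, had 260.2 ± 48.9, 55.8 ± 14.96 and 234 ± 4.3, so that Xyl72h minus Glc24h was 2.10 (adjusted p = 0.003). LEU1, of leucine synthesis, had the largest difference of the list in Xyl72h minus Glc24h (log2 3.75, adjusted p = 0.00619). ILV3 and LEU1, both of branched-chain amino acid synthesis, were thus among the 4 genes higher than in Glc24h. RLI1, an iron-sulfur protein of ribosome recycling, fell by 2.08 from Glc5h to Glc24h (adjusted p = 0.000208) and was lower on xylose than in Glc5h (log2 -1.31, adjusted p = 0.00206) but higher than in Glc24h (0.78, adjusted p = 0.0418). CTA1, the haem-containing peroxisomal catalase, was at the floor in Glc5h, at 89.0 ± 21.0 in Glc24h and at 31.5 ± 9.8 on xylose (Xyl72h minus Glc24h -1.52, adjusted p = 0.0216).

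Of 10 genes of haem synthesis, 1 was higher and 2 were lower in Xyl72h minus Glc5h, 3 were higher and 2 lower in Glc24h minus Glc5h, and 0 were called between Xyl72h and Glc24h in limma (1 higher and 1 lower at an unadjusted p under 0.05). That is 30% and 50% in the comparisons with Glc5h, against 25.7% and 33.5% of all tested probe sets. HEM1, the first enzyme of the pathway, rose from 85.3 ± 5.7 to 213 ± 81.7 and 238 ± 67.9 (log2 1.26 and 1.45, adjusted p = 0.0139 and 0.011), and HEM14, protoporphyrinogen oxidase, fell from 67.1 ± 5.7 to 33.5 ± 2.7 and 39.3 ± 2.3. Of 10 copper chaperones and copper enzymes, PCA1, a metal-exporting ATPase, was higher on xylose (log2 1.70, adjusted p = 0.00103) and in Glc24h (1.27, adjusted p = 0.00203) than in Glc5h, and CCS1, the copper chaperone of superoxide dismutase, fell by 2.02 between Glc5h and Glc24h (adjusted p = 0.00561). Between Xyl72h and Glc24h none of these 10 was called (2 higher and 1 lower at an unadjusted p under 0.05). In Xyl72h minus Glc5h and Glc24h minus Glc5h 10% and 30% were called, below the 25.7% and 33.5% of all tested probe sets.

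Other metal regulators and sensors included GRX3, a glutaredoxin that takes part in iron sensing by Aft1. It fell from 201 ± 56.9 in Glc5h to 58.9 ± 9.3 in Glc24h and 63.8 ± 5.2 on xylose (log2 -1.75 and -1.62, adjusted p = 0.00109 and 0.00243). CUP2, the copper-dependent activator of the metallothionein genes, rose from 23.4 ± 2.3 to 61.2 ± 18.5 and 54.9 ± 6.3 (log2 1.35 and 1.23, adjusted p = 0.00342 and 0.00697). Of the 8 tested genes of this list, 2 were higher and 1 lower in Xyl72h minus Glc5h, 3 were higher and 1 lower in Glc24h minus Glc5h, and none was called between Xyl72h and Glc24h, also at an unadjusted p under 0.05. These are 37.5% and 50% in the comparisons with Glc5h, against 25.7% and 33.5% of all tested probe sets. Among 10 other metal carriers and reductases PHO84, a phosphate carrier that also brings in manganese, was higher on xylose than in Glc5h (log2 2.93, adjusted p = 0.00312). Both PHO84 and MMT2 rose from Glc5h to Glc24h. The shares called were 10% and 20% of the list in these comparisons, below the 25.7% and 33.5% of all tested probe sets.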

How the data were processed

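Total RNA of 9 samples was hybridised to 15 Affymetrix Yeast Genome S98 arrays. The values that the authors deposited are signal intensities on a linear scale for 9335 probe sets, with each array scaled to a trimmed mean of 50 (2% trimmed at each end). The methods describe log2 values by Robust Multichip Average, which this table does not hold. After removal of 60 control probe sets, arrays were scaled to a 75th percentile of 51.08, values under 16 were set to 16, log2 was taken and hybridisations of 1 sample were averaged. Probe sets at the floor on every array (3398) were left out. The 3 states were compared in limma 3.58.1 (R 4.3.3; lmFit, eBayes, two-sided, Benjamini-Hochberg over 5877 probe sets), a fit that was tested on simulated data. Figures used matplotlib 3.10.9.

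The planned test allowed for either scale of the table. The number of arrays limits the precision, and an exact permutation test of 3 cultures against 3 cannot go below p = 0.1. Where all cultures of a state lay at the floor, the spread there is 0 by construction and the difference is a bound. Gene names came from the platform's annotation, updated with RefSeq symbols; no genome or sequence was used. Sampling times were taken from the titles, since the treatment notes of some arrays give other times.

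Every gene of the set is accounted for, with culture values for those called in a comparison and for others where their pattern was described; from each pathway list at most the 3 genes with the lowest adjusted p in a comparison were named, from those called. The genes and lists were chosen with earlier results of these data known. Same-numbered Glc5h and Glc24h samples are 1 culture sampled at 2 times. For xylose the number only matches a fermentation, but deviations from the state means correlated by 0.529 to 0.577 with same-numbered Glc24h samples and by 0.11 to 0.284 with Glc5h samples (Glc24h with Glc5h: 0.0204 to 0.26), so fits with the number as a block are given where they change a call. Alternatives covered scaling (as deposited, quantile, cyclic loess, reference genes), floor, filter, hybridisations, variance prior, block and leaving out each culture.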

Additional observations from a re-analysis of the deposited data

How the results depend on the processing

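No difference changed sign past the threshold under any alternative. For the 111 single-gene differences, 2170 alternative values were on the same side of the threshold, 121 lost a call and 62 gained one. CRS5 in both comparisons with Glc5h, FET4 in Xyl72h minus Glc5h, FET5 in Glc24h minus Glc5h and ISU2 in both comparisons with xylose were called in each alternative run. For Xyl72h minus Glc5h, 8 genes were called, 5 with no filter on low signals and 5 to 10 when 1 culture was left out. For Xyl72h minus Glc24h, 4 were called, 2 with a floor of 4, 1 with no filter, 2 with the first hybridisation of fermentation 2 alone, and 1 to 5 when 1 culture was left out. For Glc24h minus Glc5h, 10 were called, 17 with reference gene scaling, 5 with no filter, and 5 to 14 when 1 culture was left out. The F-test called 13 genes, 6 with no filter and 7 to 15 when 1 culture was left out. Without the filter more probe sets were adjusted for (9275).

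With the fermentation number as a replicate block, 6, 4 and 8 genes were called in these comparisons and 12 in the F-test, and with the culture as a block in the glucose samples alone 6 were. The block changed no call beyond those named above: FET3, ENB1, SMF2, MRS4, ARN1, FET4 and ISU2 were lost from 1 comparison each over 9 samples, and CTR1 and CTR3 were gained. In the glucose samples alone, Glc24h minus Glc5h lost ARN1, FET4, COT1, ISU1 and ISU2 and gained CTR1. Without Glc24h culture 1, limma called 7 genes higher and 0 lower in Glc24h minus Glc5h. Over all tested probe sets the share of calls that were higher was 45.5% for Xyl72h minus Glc5h, 59.8% for Xyl72h minus Glc24h and 42.9% for Glc24h minus Glc5h, 48.9%, 39.3% and 54.9% with the values as deposited, and 77.7%, 41.6% and 74.3% with reference gene scaling. No gene had another probe set to compare. Signals near the floor of 16, as in the FRE, AFT and MRS3 genes, limit what could be seen.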
